A study of Mus musculus with 20 samples.

Results

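The flavin-containing monooxygenase (FMO) genes of mouse liver were examined through 4 members, Fmo1, Fmo2, Fmo4 and Fmo5. They were selected by symbol among the 25444 gene loci of the deposited expression tables, and each symbol matched 1 locus. The livers came from C57BL/6N (B6) and C3H/HeN (C3) mice at 20 weeks of age, with 5 females (F) and 5 males (M) of each strain. No treatment or engineered allele is named for any group. All mice came from 1 supplier and were housed singly, and the RNA was taken from the left lateral lobe. The sexes had been housed in different rooms, and an effect of room cannot be told apart from one of sex in any female to male comparison.

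FMOs are enzymes of the endoplasmic reticulum that carry a tightly bound FAD. They take electrons from NADPH, activate molecular oxygen, and transfer 1 oxygen atom to a nucleophilic nitrogen or sulphur atom of a drug, a pesticide or a dietary amine. In the liver they work beside the cytochrome P450 enzymes on many of the same compounds. Fmo1 encodes a broad-specificity form that adult mouse liver expresses, Fmo2 the form best known from lung, Fmo4 a form whose substrates are little known, and Fmo5 a form that acts on few of the classical amine substrates and can insert oxygen next to a carbonyl group.

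Of the 4 genes, 3 lie side by side on chromosome 1, all on the minus strand. On the mm9 build used by the files, Fmo4 (gene identifier 226564) spans chr1:164724014-164742680, Fmo1 (14261) spans chr1:164759692-164796679 and Fmo2 (55990) spans chr1:164805178-164828843. The 3 genes fill 104830 bp, with 17011 bp between Fmo4 and Fmo1 and 8498 bp between Fmo1 and Fmo2. Fmo5 (14263) stands apart on the plus strand of chromosome 3, at chr3:97432727-97459210. No locus of the table outside the family overlaps any of the 4 genes. In the GENCODE vM1 annotation of the same build, the longest coding transcripts of Fmo1, Fmo2, Fmo4 and Fmo5 have 9, 9, 10 and 9 exons and open reading frames of 532, 535, 560 and 533 codons without the stop.

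The beginning of each reading frame holds a glycine motif of the kind that binds FAD. The first 60 coding bases are shown for the 4 genes, with the motif in capitals (glycine codons at its positions 1, 3 and 6).
Fmo1: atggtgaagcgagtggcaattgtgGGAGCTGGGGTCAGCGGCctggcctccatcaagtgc
Fmo2: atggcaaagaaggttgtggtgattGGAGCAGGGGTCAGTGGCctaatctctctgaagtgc
Fmo4: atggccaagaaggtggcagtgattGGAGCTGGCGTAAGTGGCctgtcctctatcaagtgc
Fmo5: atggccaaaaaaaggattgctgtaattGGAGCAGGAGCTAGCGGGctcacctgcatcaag

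The motif occupies coding bases 25 to 42 in Fmo1, Fmo2 and Fmo4 and bases 28 to 45 in Fmo5, which has 1 more codon before it. Over the aligned reading frames the 4 genes were 59.3% to 62.5% identical, lowest between Fmo1 and Fmo5 and highest between Fmo2 and Fmo4. Identity among the 3 genes of chromosome 1 was 61.0% to 62.5%, and their identity to Fmo5 was 59.3% to 62.4%. The longest run of identical bases was 24, between Fmo1 and Fmo5, and 12 to 22 for the other pairs. Read pairs that fit several genes were not counted, and runs of this length are shorter than the reads.

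Each library held between 27370921 and 46835745 counted read pairs, and libraries were sequenced in 3 pools that each contained mice of all 4 groups. All 4 genes passed the filter on low counts, and 13704 genes were tested. The lowest count of any member in any library was 67, for Fmo4 in a B6 male, and the highest was 16732, for Fmo5 in a B6 male. Expression is given as normalised CPM (counts scaled to library size by TMM) for each mouse, in the order of replicates 1 to 5. A gene was called different when its adjusted P-value, from edgeR's quasi-likelihood test with Benjamini-Hochberg adjustment over all genes tested, was below 0.001 and its log2 fold change was beyond 0.5, up or down.

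Livers held hepatocyte transcripts at a high level in every group. The 6 hepatocyte markers summed to 123415 to 152353 normalised CPM in B6 F, 105166 to 123099 in B6 M, 172553 to 202959 in C3 F and 149377 to 168136 in C3 M. None of them was called between the sexes, while Trf and Apoa1, which encode plasma transferrin and apolipoprotein A1, were higher in C3 in both sexes. The 5 Kupffer cell markers summed to 323 to 436 in B6 F, 205 to 324 in B6 M, 227 to 345 in C3 F and 154 to 231 in C3 M. Among these, Vsig4 was higher in females of both strains (log2 fold change 0.75 and 0.51), and Vsig4 and Adgre1 were lower in C3 in both sexes. Stellate cell markers summed to 458 to 571, 375 to 437, 385 to 423 and 322 to 372 in the same order of groups, and sinusoidal endothelial markers to 333 to 414, 277 to 326, 318 to 400 and 288 to 350. Neither of those 2 lists had a gene called in the same direction in both strains or in both sexes. Cholangiocyte markers summed to 22.4 to 40.4, 33.0 to 43.6, 27.1 to 39.7 and 21.6 to 29.4. Of these 5 genes, Sox9 was called lower in females of both strains, and the other 4 were not called, with log2 fold changes of F against M of -0.08 to 0.19 in B6 and 0.37 to 0.66 in C3. Lymphocyte markers summed to 1.55 to 2.81, 0.686 to 2.76, 1.32 to 1.62 and 0.309 to 0.535. None of the 4 tested was called. The lymphocyte sums of C3 males lay below those of C3 females without overlap. Sums of the hepatocyte and stellate cell markers were also lower in males without overlap in both strains, and those of the endothelial markers in B6. Of all single genes tested, 10.9% in B6 and 13.1% in C3 had no overlap between the sexes. The median log2 fold change of the lymphocyte list was 1.59 for F against M in C3 and -1.53 for C3 against B6 in males. No lymphocyte marker had more than 8 counts in any C3 male, so these fold changes lie near the floor. Adipocyte markers had at most 5 counts in any library, and Lep was at 0 in all. The part of these cell types in the Fmo results was not tested, and in whole liver a smaller number of cells of a type cannot be told apart from less RNA per cell.

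Sex was the first question. In both strains, the 3 genes of chromosome 1 were higher in females and Fmo5 was higher in males, and all 4 were called. The female to male ratio was largest for Fmo2, at 5.26-fold in B6 and 6.38-fold in C3, followed by Fmo4 at 3.09-fold and 3.29-fold and Fmo1 at 1.78-fold in each strain. Fmo5 was 2.21-fold higher in B6 males and 1.86-fold higher in C3 males than in females. Among all genes tested, 3.23% were called higher in B6 females, 3.12% lower in B6 females, 4.11% higher in C3 females and 2.79% lower in C3 females. Female and male livers did not overlap for any member in either strain, as for 10.9% of all genes tested in B6 and 13.1% in C3.

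**Figure D1:**
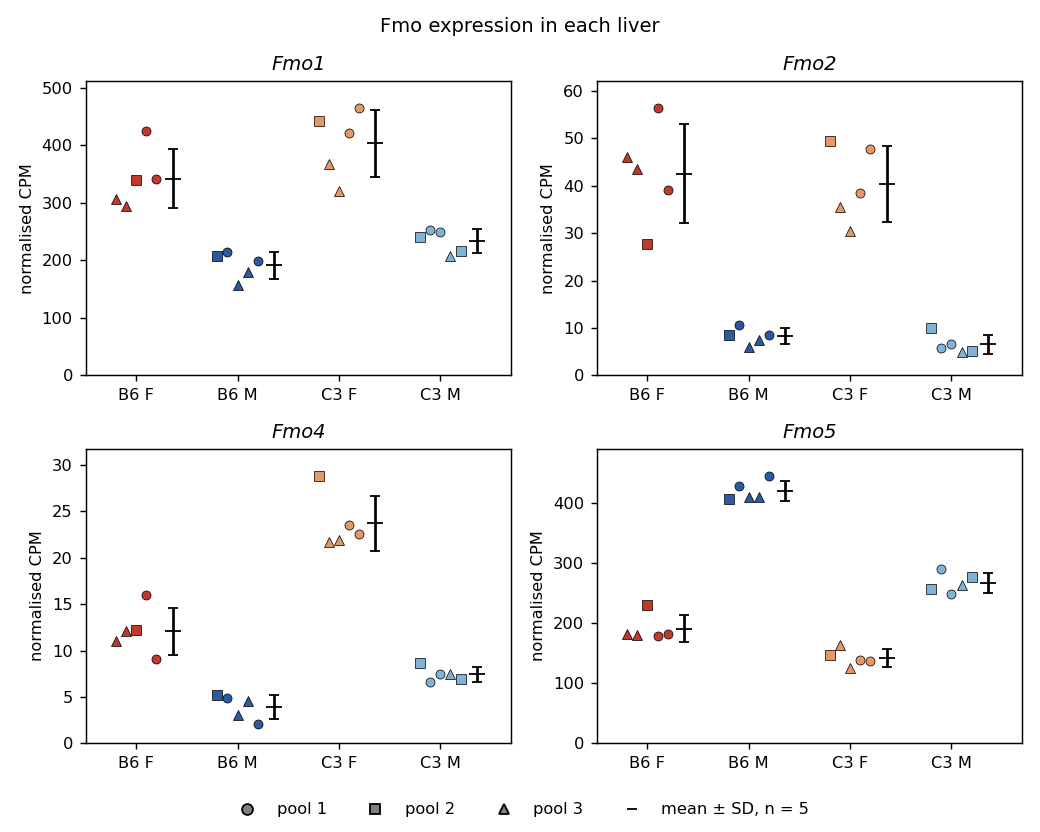
Normalised CPM of Fmo1, Fmo2, Fmo4 and Fmo5 (vertical axes, each from 0) in the 20 livers, by group; each point is 1 mouse, its shape the sequencing pool, and bars show the mean ± SD of 5 mice. Every female point lies above every male point of its strain for Fmo1, Fmo2 and Fmo4 and below it for Fmo5, and C3 lies above B6 for Fmo4 and below B6 for Fmo5 within each sex.

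Fmo1, the broad-specificity form, had 307, 295, 339, 425 and 342 normalised CPM in the 5 B6 females. In the B6 males it had 208, 215, 157, 180.0 and 199. The lowest B6 female stood 1.37 times above the highest B6 male. The C3 females had 442, 368, 321, 421 and 465 normalised CPM, and the C3 males had 241, 253, 249, 208 and 216. The sexes were again separate, with the lowest C3 female 1.27 times above the highest male. Means were 342 ± 51.1 (SD, n = 5) in B6 females against 192 ± 23.4 in B6 males, and 403 ± 58.5 in C3 females against 234 ± 20.2 in C3 males. The log2 fold change of F against M was 0.83 ± 0.066 (SE; 95% interval 0.69 to 0.97) in B6, with an adjusted P-value of 3.0e-08 in edgeR. In C3 it was 0.83 ± 0.067 (0.69 to 0.97), with an adjusted P-value of 3.7e-08 in edgeR.

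Fmo2, which encodes the lung-type enzyme, was measured at a much lower count. B6 females had 46.0, 43.5, 27.8, 56.4 and 39.0 normalised CPM. B6 males had 8.46, 10.7, 6.05, 7.45 and 8.53. All 5 females exceeded every male, and the nearest pair differed 2.59 times. C3 females had 49.4, 35.4, 30.5, 38.6 and 47.7 normalised CPM, and C3 males had 10.1, 5.85, 6.65, 5.01 and 5.14. In C3 the nearest female and male differed 3.03 times, the widest gap between the sexes of any member. Means were 42.6 ± 10.4 and 8.24 ± 1.71 (SD, n = 5) in B6 females and males, and 40.3 ± 8.06 and 6.54 ± 2.07 in C3. The log2 fold change was 2.39 ± 0.19 (SE; 1.99 to 2.80) in B6, with an adjusted P-value of 3.8e-08 in edgeR, and 2.67 ± 0.20 (2.25 to 3.10) in C3, with 1.5e-08.

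Fmo4, the least characterised member, had the fewest counts of the members on average in 3 of 4 groups, and in C3 males Fmo2 had fewer (mean 208 against 242). It had 11.1, 12.1, 12.2, 16.0 and 9.07 normalised CPM in B6 females. B6 males had 5.16, 4.83, 3.09, 4.57 and 2.06, all below the lowest female. C3 females had 28.9, 21.7, 22.0, 23.5 and 22.6, and C3 males had 8.67, 6.60, 7.46, 7.44 and 6.96. Both sexes of C3 lay higher than their B6 counterparts, and C3 females were the highest group with no overlap with any other. Means were 12.1 ± 2.54 and 3.94 ± 1.32 (SD, n = 5) in B6 females and males, and 23.7 ± 2.96 and 7.42 ± 0.782 in C3. The log2 fold change of F against M was 1.63 ± 0.18 (SE; 1.25 to 2.01) in B6 and 1.72 ± 0.17 (1.35 to 2.08) in C3, with adjusted P-values of 1.9e-06 and 7.1e-07 in edgeR.

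Fmo5, the atypical form on chromosome 3, ran the other way. B6 females had 182, 181, 229.5, 178 and 182 normalised CPM. B6 males had 406, 427, 409.8, 409 and 445, so that the lowest male was 1.77 times the highest female. C3 females had 146, 164, 125, 138 and 137, and C3 males had 256, 290.1, 247, 264 and 277. The groups fell in a single order without overlap, B6 males highest, then C3 males, B6 females and C3 females. Means were 190.5 ± 21.9 and 419 ± 16.2 (SD, n = 5) in B6 females and males, and 142 ± 14.5 and 267 ± 17.0 in C3. The log2 fold change of F against M was -1.14 ± 0.076 (SE; -1.30 to -0.98) in B6 and -0.89 ± 0.077 (-1.05 to -0.73) in C3, with adjusted P-values of 2.2e-09 and 8.1e-08 in edgeR.

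The direction of the sex difference was the same within every pool. In B6 the within-pool log2 differences were 0.71 to 0.88 for Fmo1, 1.71 to 2.73 for Fmo2, 1.24 to 1.92 for Fmo4 and -1.27 to -0.82 for Fmo5. In C3 they were 0.72 to 0.95 for Fmo1, 2.70 to 2.77 for Fmo2, 1.55 to 1.89 for Fmo4 and -0.96 to -0.86 for Fmo5. Each pool held 1 or 2 mice of a group, so these are values without a test.

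Strain was the second question, asked within each sex. Fmo4 and Fmo5 differed between the strains and Fmo1 and Fmo2 were not called. Fmo4 was 1.95-fold higher in C3 females than in B6 females and was called. In males it was 1.83-fold higher in C3, with an adjusted P-value just above the threshold. Fmo5 was 1.59-fold higher in B6 males than in C3 males and was called, and 1.34-fold higher in B6 females, under the fold limit. Of all genes tested, 4.63% were called higher and 4.77% lower in C3 females than in B6 females, and 4.09% were called higher and 5.55% lower in C3 males than in B6 males. With 1 of 4 members called in each sex, the share of members is based on a single gene each time.

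For Fmo4, the log2 fold change of C3 against B6 was 0.96 ± 0.17 (SE; 0.61 to 1.31) in females, with an adjusted P-value of 1.9e-04 in edgeR. The 5 C3 females lay above all 5 B6 females, the nearest pair 1.35 times apart. The call in females was lost with limma on log2(TPM + 0.1), with a log2 fold change of 0.91 and an adjusted P-value of 0.0017, and when edgeR's glmTreat required a change beyond 0.5, with 0.0214. Adjusted P-values over the 11 alternatives ran from 2.7e-07 to 0.0214. In males the log2 fold change was 0.87 ± 0.19 (0.48 to 1.26), with an adjusted P-value of 0.00124 in edgeR, and the 5 C3 males also lay above all 5 B6 males, 1.28 times apart at the nearest. The male difference was called when 1 of 3 livers was left out, with a log2 fold change of 0.88 and an edgeR adjusted P-value of 4.3e-04 without B6 female 4, 0.87 and 9.5e-04 without B6 female 5, and 0.98 and 8.4e-04 without B6 male 2. It was also called by DESeq2, with an adjusted P-value of 1.7e-05, over alternatives that ran from 1.7e-05 to 0.0849.

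For Fmo5, the log2 fold change of C3 against B6 was -0.42 ± 0.076 (SE; -0.58 to -0.26) in females, with an adjusted P-value of 2.6e-04 in edgeR. In males it was -0.67 ± 0.077 (-0.83 to -0.51), with 1.5e-06. Neither sex overlapped between strains: the lowest B6 female stood 1.09 times above the highest C3 female, and the lowest B6 male 1.40 times above the highest C3 male. The male call was lost only with glmTreat against 0.5 (adjusted P-value 0.0565; the 11 alternatives ran from 6.1e-15 to 0.0565). Groups without overlap were found for 12.8% of all genes tested in females and 15.1% in males.

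Fmo1 was slightly higher in C3, with a log2 fold change of 0.24 (95% interval 0.10 to 0.38) in females and 0.24 (0.10 to 0.38) in males and an edgeR adjusted P-value of 0.0093 in each, short of both limits. The strains overlapped in each sex. Fmo2 was not called in either sex, and its strains overlapped. Its log2 fold change was -0.10 (-0.48 to 0.28) in females and -0.38 (-0.81 to 0.05) in males, with edgeR adjusted P-values of 0.71 and 0.157. With 1 liver left out, the female value ran from -0.28 (without B6 female 3, the lowest in Fmo2 of its group) to -0.01 (without B6 female 4), and the male value from -0.57 (without C3 male 1) to -0.31 (without B6 male 2), with Fmo2 called in none of these fits. Within pools, the strain difference of Fmo4 was 0.91 to 1.23 in females and 0.58 to 1.14 in males, that of Fmo5 was -0.65 to -0.34 and -0.70 to -0.61, and that of Fmo1 was 0.19 to 0.38 and 0.14 to 0.31. Only for Fmo2 in females did the sign differ between pools, from -0.44 to 0.83.

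**Figure D2:**
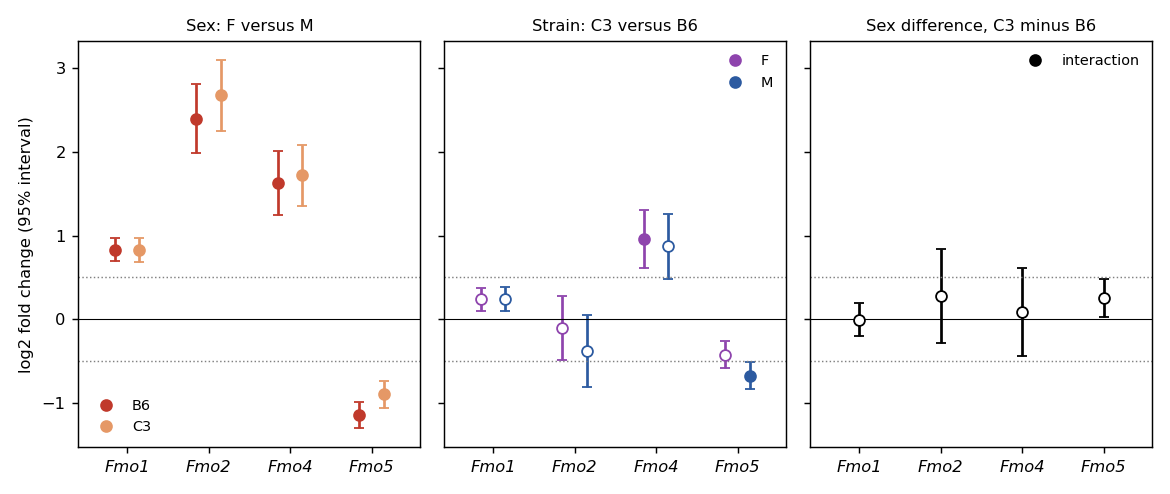
Log2 fold changes of the 4 genes with 95% intervals from edgeR (vertical axis), for F against M in B6 and C3 (left), C3 against B6 in F and M (middle) and the difference of the sex effect, C3 minus B6 (right); filled points were called, open points were not, and dotted lines mark a log2 fold change of 0.5 in either direction. Sex differences run from -1.14 for Fmo5 to 2.67 for Fmo2 and are all called, only Fmo4 in F and Fmo5 in M are called between strains, and no interaction is called.

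Whether the sex difference itself depended on strain was tested as the sex-by-strain interaction. None of the 4 members was called, against 0.401% of all genes tested. The female to male log2 fold change in C3 minus that in B6 was 0.00 for Fmo1 (95% interval -0.20 to 0.19; edgeR adjusted P-value 0.997), 0.28 for Fmo2 (-0.29 to 0.84; 0.674) and 0.09 for Fmo4 (-0.43 to 0.61; 0.911). For Fmo5 it was 0.25 (0.025 to 0.476), with an unadjusted P-value of 0.0311 and an adjusted P-value of 0.249, and Fmo5 was the 1 member with an unadjusted P-value under 0.05. The intervals of Fmo2 and Fmo4 are wide enough to hold an interaction above the fold limit of 0.5, and those of Fmo1 and Fmo5 are not. The Fmo2 value ran from 0.16 without B6 female 3 to 0.48 without C3 male 1, and the Fmo4 value from -0.02 without B6 male 2 to 0.25 without B6 male 5, none of them called.

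Levels were compared between genes on the TPM scale, which divides by gene length. How that length was defined is not stated, and the order of Fmo1 and Fmo5 in males depends on it. By normalised CPM, Fmo5 had the higher mean in B6 males (419 against 192) and in C3 males (267 against 234). By mean TPM, Fmo1 was the most abundant member in each group, at 324 ± 40.4 TPM in B6 F, 168 ± 19.4 in B6 M, 365 ± 48.5 in C3 F and 195 ± 16.2 in C3 M (SD, n = 5). Its mean level exceeded that of 94.3% to 97.5% of the genes tested. Fmo5 came second, at 79.2 ± 7.94, 161 ± 5.00, 56.4 ± 6.60 and 97.5 ± 6.99 TPM in the same order of groups. In B6 males Fmo1 and Fmo5 overlapped, and Fmo1 was the higher of the pair in 4 of 5 livers. In the other 3 groups Fmo1 and Fmo5 were separate in every liver.

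In TPM, Fmo2 and Fmo4 were an order of magnitude or more lower than Fmo1, and their order depended on the group. Fmo2 had 28.3 ± 6.79 TPM in B6 F, 5.04 ± 1.00 in B6 M, 25.5 ± 4.96 in C3 F and 3.81 ± 1.19 in C3 M. Fmo4 had 14.9 ± 2.81, 4.52 ± 1.54, 28.0 ± 3.35 and 8.07 ± 0.812 TPM in the same groups. Fmo2 was above Fmo4 in 5 of 5 B6 females and in 3 of 5 B6 males, and Fmo4 was above Fmo2 in 4 of 5 C3 females and in 5 of 5 C3 males. Only in C3 males were the ranges of the pair separate.

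On the TPM scale, the balance between the 2 abundant forms was most even in B6 males and most toward Fmo1 in C3 females. The Fmo1 to Fmo5 ratio of TPM was 4.14 ± 0.804 in B6 F, 1.05 ± 0.120 in B6 M, 6.53 ± 1.03 in C3 F and 2.01 ± 0.223 in C3 M (SD, n = 5). It lay between 0.876 and 1.17 in the B6 males, between 1.79 and 2.31 in the C3 males, between 3.38 and 5.46 in the B6 females and between 5.13 and 7.75 in the C3 females. The females and males of each strain were separate, while the 2 groups of females overlapped. As a share of the TPM summed over the 4 genes, Fmo1 made up 72.4% ± 2.29 in B6 F, 49.5% ± 2.66 in B6 M, 76.8% ± 1.84 in C3 F and 64.0% ± 2.23 in C3 M. The share of Fmo5 was 17.9% ± 2.67, 47.7% ± 3.02, 12.0% ± 1.73 and 32.1% ± 2.44. These ratios and shares follow from the same values as the tests and were not tested again.

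**Figure D3:**
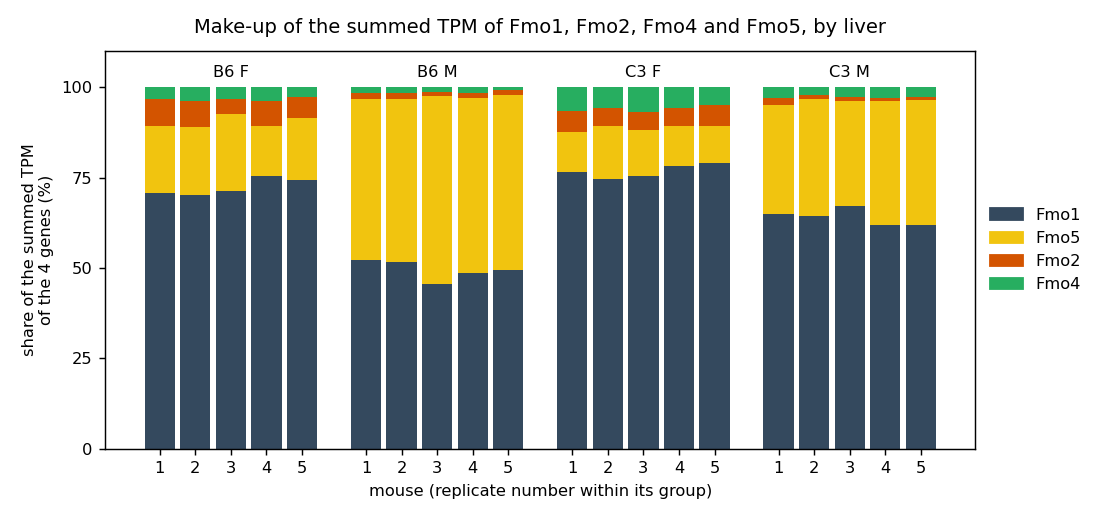
Share (%) of the TPM summed over Fmo1, Fmo2, Fmo4 and Fmo5 that each gene took in each of the 20 livers, 1 bar per mouse, in the order of replicates within a group. Fmo1 and Fmo5 take similar parts in B6 males (mean 49.5% and 47.7%), and Fmo1 alone takes the largest part in the other 3 groups. Fmo2 and Fmo4 are thin bands at the top that widen in females.

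Genes that supply FMOs with their cofactors were examined in the same fit. Of 12 genes for riboflavin uptake, FAD synthesis and NADPH regeneration, 0 were called higher and 1 lower in B6 females than in males, and 1 higher and 0 lower in C3 females. The shares over all genes tested were 3.23% higher and 3.12% lower in B6 females, and 4.11% higher and 2.79% lower in C3 females. With 1 of 12 genes called in each strain, the share of the list is based on a single gene each time. The 1 called gene in B6 was Me1, cytosolic malic enzyme, with a log2 fold change of -1.10 ± 0.20 (SE). The 1 called in C3 was G6pdx, glucose-6-phosphate dehydrogenase, with 0.89 ± 0.17. Other genes of the list had an edgeR adjusted P-value below 0.001 but fell short of the fold limit. They were Rfk (0.39) and Nnt (0.33) in B6, and Flad1 (-0.38) and Pgls (-0.34) in C3. Between the strains, only Pgd, 6-phosphogluconate dehydrogenase, was called, higher in C3 females by 0.60 ± 0.12, and none was called in males. Of all genes tested, 4.63% were called higher in C3 females than in B6 females. Median log2 fold changes of the list were -0.21 and 0.01 for F against M in B6 and C3, beside 0.00 and 0.01 over all genes tested. For C3 against B6 they were 0.03 and -0.08 in females and males, beside 0.02 and 0.01 over all genes tested.

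Of 16 oxidoreductases and hydrolases outside the P450 family that also act on drugs, 5 were called higher and 5 lower in females in each strain. Among all genes tested, 3.23% were called higher and 3.12% lower in females in B6, and 4.11% and 2.79% in C3. In both strains the same direction was called for 9 genes, 5 higher and 4 lower in females. Those higher in females included Por, the reductase that feeds electrons to P450 enzymes (log2 fold change 0.83 in B6 and 0.96 in C3), Nqo1, a quinone reductase (0.90 and 1.53), and Maob, monoamine oxidase B (0.55 and 0.55). Those lower in females included the aldehyde oxidases Aox1 (-1.03 and -1.31) and Aox3 (-1.55 and -2.05) and Ephx2, soluble epoxide hydrolase (-0.84 and -0.95). As with the 4 Fmo genes, the list held genes of either direction in each strain. Between the strains 0 were higher and 5 lower in C3 females and 0 higher and 4 lower in C3 males. Of all genes tested, 4.63% were called higher and 4.77% lower in C3 females, and 4.09% higher and 5.55% lower in C3 males. The 3 genes lower in C3 in both sexes were Xdh, xanthine dehydrogenase (-0.98 in F and -0.84 in M), Aox1 (-1.03 and -0.75) and Adh1, alcohol dehydrogenase (-0.90 and -0.83). The list's median log2 fold change was 0.09 and -0.03 for F against M in B6 and C3, beside 0.00 and 0.01 over all genes tested. For C3 against B6 it was -0.38 and -0.37 in females and males, beside 0.02 and 0.01.

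Genes around the members were examined within 500 kb, leaving the Fmo family out. Around the 3 genes of chromosome 1, 9 other loci were listed and 6 were tested. Of these 6, 0 were called higher and 1 lower in B6 females than in males, and none in C3. Among all genes tested the shares were 3.23% higher and 3.12% lower in B6 females, and 4.11% and 2.79% in C3 females. The 1 gene was Prrx1, which encodes a homeobox factor of mesenchymal cells, with a log2 fold change of -1.47 ± 0.25 (SE) and an edgeR adjusted P-value of 1.8e-04, a sign opposite to that of the 3 Fmo genes. Between strains none of the 6 was called in females. In males Mettl13, a methyltransferase gene, was higher in C3 (0.87 ± 0.12, adjusted P-value 9.5e-06) and Prrx1 was lower in C3 (-1.54 ± 0.26, adjusted P-value 1.5e-04). Of all genes tested, 4.09% were called higher and 5.55% lower in C3 males. Around Fmo5, 10 other loci were listed and 7 tested, and none was called in any of the 4 comparisons. Their log2 fold changes of F against M ran from -0.54 (Sec22b) to 0.14 (Notch2) in B6 and from -0.63 (Sec22b) to 0.22 (Notch2) in C3. Sec22b, with the sign of Fmo5, had edgeR adjusted P-values of 0.0033 and 0.0013.

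**Figure D4:**
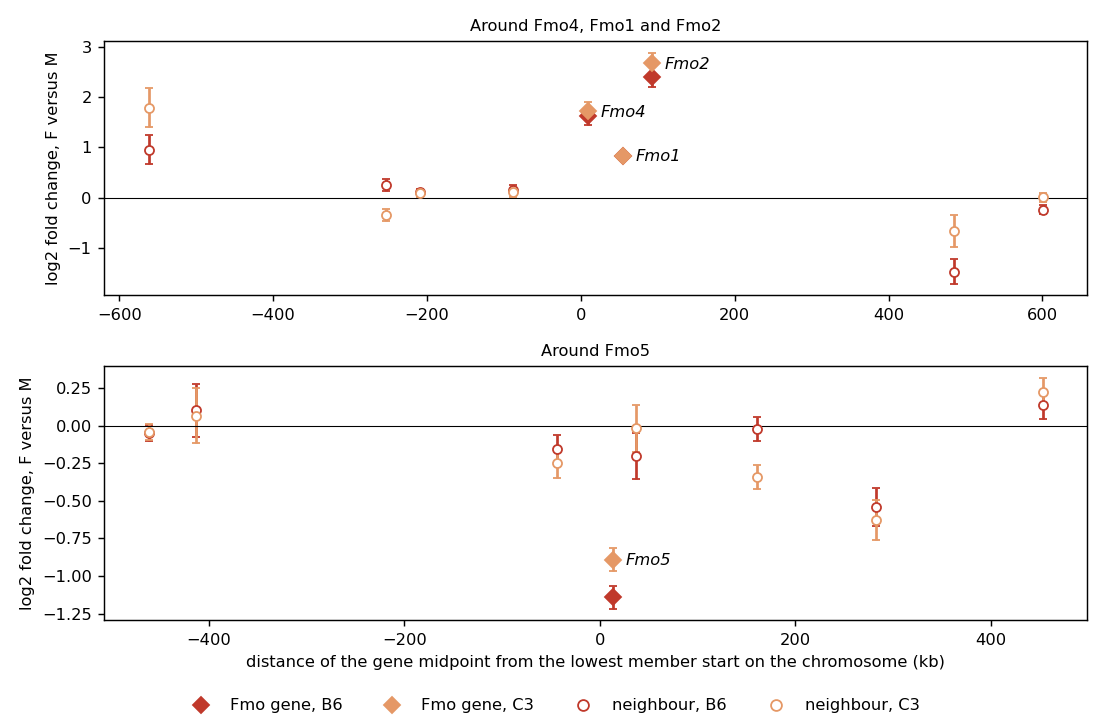
Log2 fold change of F against M (vertical axis, error bars ± SE) for the Fmo genes (diamonds) and the tested genes within 500 kb of them (circles), in B6 and C3, against the distance in kb of each gene's midpoint from the start of the first member on the chromosome; for Fmo1 the C3 diamond covers the B6 one. The Fmo diamonds lie at 0.83 to 2.67 on chromosome 1 and at -1.14 and -0.89 on chromosome 3, while Prrx1 in B6, at -1.47, is the only neighbour called.

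Upstream sequence from RefSeq, on GRCm38.p6, was matched by symbol for Fmo2, Fmo4 and Fmo5. The stretches of Fmo2 and Fmo4 that precede any exon of the GENCODE vM1 transcripts, matched by sequence, are shown, as the 2 members with the largest female to male ratios. That of Fmo2 covers the 250 bases before its first listed start (chr1:162898759-162899008, minus strand), and that of Fmo4 covers 143 bases ending 107 bases before its start (chr1:162812657-162812799, minus strand).
Fmo2: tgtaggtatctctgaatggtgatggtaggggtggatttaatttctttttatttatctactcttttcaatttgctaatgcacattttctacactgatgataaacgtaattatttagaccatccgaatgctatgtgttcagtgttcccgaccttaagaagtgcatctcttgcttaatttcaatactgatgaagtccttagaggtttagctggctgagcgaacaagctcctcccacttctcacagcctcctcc
Fmo4: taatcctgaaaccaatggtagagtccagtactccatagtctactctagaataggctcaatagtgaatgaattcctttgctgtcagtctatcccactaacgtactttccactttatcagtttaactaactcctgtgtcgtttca

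G and C made up 39.6% and 39.2% of the stretches shown. Over whole windows of 250 bases, the share was 39.6% and 47.6% before the first and second Fmo2 starts. It was 42.4% before Fmo4 and 56% before Fmo5, where the median of all 32851 RefSeq windows was 52.4%. The windows of 250 bases before the listed starts of the 3 genes (2 starts for Fmo2) were searched on both strands for TTCNNNGAA, the letters bound by STAT factors, which carry the growth hormone signal in liver. No match was found, and 7.02% of all windows held one. AGGTCA, a nuclear receptor half-site held by 14.0% of windows, matched once before the second Fmo2 start and once before Fmo4. TGTTTAC, a forkhead site held by 3.17%, matched before the second Fmo2 start. TATAAA, held by 12.4%, matched before Fmo5, on the strand opposite to the gene and 195 bases before its start. ATCAAT, a letter string of HNF6 sites held by 6.72%, and GCGTG, the core read by the aryl hydrocarbon receptor and held by 28.2%, matched in none. All 4 matches lie beyond the bases that precede an annotated exon in their windows, so none falls in the stretches shown. The matches say only that these letters are present in the windows.

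The genes whose expression ran most like each member were found over the 20 livers, from the Pearson correlation of log2 CPM after pool means were subtracted. These values describe livers that share 2 strains and 2 sexes, and carry no P-value. For Fmo1 they were Rtn4 (r = 0.985), Nt5e (0.980) and Pygo1 (0.978). For Fmo2 they were Slc22a26 (0.982), Gm4794 (0.981) and Rsph4a (0.976), and for Fmo4 Tm6sf2 (0.987), Nt5e (0.974) and Kng2 (0.968). For Fmo5 they were Chpt1 (0.985), Hprt (0.978) and Nat8f5 (0.978). Nt5e, which encodes the ecto-nucleotidase CD73, stood on the lists of both Fmo1 and Fmo4. Slc22a26 and Nat8f5 belong to families of close copies, and since read pairs that fit several copies were not counted, their values are uncertain. The 3 genes listed for Fmo2 differed far more between the sexes than Fmo2 itself. Their log2 fold changes of F against M in B6 and C3 were 8.19 and 9.05 for Slc22a26, 11.7 and 12.8 for Gm4794, and 5.00 and 5.61 for Rsph4a. Among the members, r was 0.955 between Fmo1 and Fmo4, 0.916 between Fmo1 and Fmo2 and 0.800 between Fmo2 and Fmo4, and Fmo5 had -0.941, -0.809 and -0.956 with Fmo1, Fmo2 and Fmo4.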

How the data were processed

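RNA of 20 mouse livers, 5 for each combination of strain (B6 or C3) and sex, had been sequenced as stranded, ribosomal RNA-depleted total RNA in 3 pools. The authors deposited raw read pair counts for each gene, obtained with Cutadapt 1.9.1, STAR 2.5.1b on mm9 and strand-specific featureCounts (Subread 1.5.0-p1) on RefSeq genes, without multimapping or multi-overlapping pairs. They also deposited TPM values, whose gene length definition is not given in the sources used here. In both tables the headers of the symbol and identifier columns are exchanged, and the columns were read by content. Groups and pools were taken from the sample labels, and the mice are biological replicates.

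Counts were fitted in R 4.3.3 with edgeR 4.0.16, by filterByExpr, TMM and a quasi-likelihood model with terms for group and pool, fitted to the 20 libraries together, and P-values were adjusted over the 13704 genes tested. SE values are the log2 fold change divided by the root of F. TPM sums to a fixed total in each library, so it was used for levels between genes and the tests used counts. Each library held at least 27370921 counts, and the intervals given come from the fitted spread between mice, not from counting error alone. Alternatives were DESeq2 1.42.0, limma 3.58.1 on log2(TPM + 1) or log2(TPM + 0.1), other scalings, filters, covariates, libraries and thresholds, and each liver left out in turn. Coding sequences were aligned with Biopython 1.88. The fit was tested on simulated data.

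The 4 members and all gene lists were chosen with earlier results of these data known. Genes named from a list are those called in the same direction in both comparisons of a kind, at most the 6 with the smallest P-values. Other named genes are called neighbours within 500 kb and, for each member, the 3 genes outside the family with the highest correlation. Me1, G6pdx, Pgd, Rfk, Nnt, Flad1, Pgls, Dnm3, Sec22b and Notch2 were named after their values were seen. Replicate numbers did not pair mice and were used as a block only in an alternative. Some items of the tables are not reported here.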

Additional observations from a re-analysis of the deposited data

Results flagged for a closer look

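Each member was checked in each group for a liver whose gap to the nearest of the others exceeded 0.71 of the group's range, Dixon's 95% limit for 5 values. Of the 16 sets of values, tested at both ends, 2 had such a liver, and chance alone gives about 1 in 20. C3 female 1 had the highest Fmo4 value of its group, 28.9 normalised CPM, where the other 4 C3 females had 21.7 to 23.5. Without this liver, Fmo4 remained called higher in C3 than in B6 females, with a log2 fold change of 0.93 and an edgeR adjusted P-value of 8.5e-04, and higher in C3 females than in males, with 1.67 and 8.3e-06. B6 female 3 had the highest Fmo5 value of its group, 229.5 normalised CPM, where the other 4 B6 females had 178 to 182. Without it, the log2 fold change of Fmo5 for F against M in B6 was -1.23, with an edgeR adjusted P-value of 8.5e-10. C3 against B6 in females was then -0.34, with 0.00107. The same liver had the lowest Fmo2 value of the B6 females, 27.8 normalised CPM. No member passed the test of the sex-by-strain interaction.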

How the results depend on the processing

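All 4 members were called between the sexes in both strains under all 11 alternatives and with each of the 20 livers left out, with the main direction. Under the alternatives, the log2 fold change of F against M in B6 ran from 0.82 to 0.95 for Fmo1, 2.26 to 2.46 for Fmo2, 1.57 to 1.76 for Fmo4 and -1.15 to -1.02 for Fmo5. The strain comparisons moved more. With an adjusted P-value under 0.05 and no fold limit, 3 members were called in females (Fmo1 0.24 and Fmo5 -0.42 joined Fmo4) and 3 in males (Fmo1 0.24 and Fmo4 0.87 joined Fmo5). In females the Fmo4 call was lost, leaving 0 members, with limma on log2(TPM + 0.1) (0.91) and with glmTreat (0.96). In males 2 members were called with DESeq2 (Fmo4 0.87), with no low-count filter (Fmo4 0.88) and with the replicate block (Fmo4 0.87, edgeR adjusted P-value 3.6e-04), and 0 with glmTreat (Fmo5 -0.67). With 1 liver left out, the male Fmo4 value ran from 0.71 to 0.98 and 1 to 2 members were called. glmTreat requires more than the main test by construction. The cause of the other changes was not tested. The interaction of Fmo1, near 0 at -0.0026, changed sign under the replicate block (0.0011), and ran from -0.0375 to 0.0490 with 1 liver left out, that of Fmo4 from -0.0175 to 0.254, that of Fmo2 from 0.160 to 0.483 and that of Fmo5 from 0.188 to 0.317. No member's interaction was called under any setting.

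The replicate numbers of the labels were not found to pair the mice. Deviations of same-numbered mice, with group and pool removed, had mean correlations of 0.0997, -0.013, 0.064 and 0.010 in the 4 comparisons, and pairs fell below 0.1 in each. The replicate block moved the count of all genes called from 869, 945, 1288 and 1321 to 845, 933, 1222 and 1263. The interaction count went from 55 to 40. The number of all genes called, and with it the shares given beside the members, depended more on other settings. In the order F against M in B6 and C3 and C3 against B6 in females and males, 421, 482, 815 and 881 genes were called with no pool term, 592, 625, 876 and 1102 with only the 2 groups compared, 294, 314, 525 and 585 with glmTreat, and 4742, 5479, 4515 and 4733 with an adjusted P-value under 0.05 and no fold limit. The interaction count was 20, 24 and 405 with no pool term, glmTreat and the looser threshold, and 181 with DESeq2, and it ran from 32 (without B6 male 1) to 55 with 1 liver left out. With limma on log2(TPM + 0.1), the median of all genes for F against M was 0.11 in B6 and 0.12 in C3, against 0.00 and 0.01, and Fmo5 kept its opposite sign. The lowest count of any member was 67, for Fmo4 in a B6 male.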
